A study of Saccharomyces cerevisiae with 8 samples.

Results

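The strain dependence of the response to methyl methanesulfonate (MMS) was measured as a difference of differences: the MMS response of the sgs1 null strain, MMS minus untreated, minus the same response of wild type. It used all 8 arrays of the series, 2 in each of 4 groups: wild type yeast untreated, wild type with MMS, sgs1 null untreated and sgs1 null with MMS. The organism was budding yeast, Saccharomyces cerevisiae, taken in log phase, and total RNA was hybridized to one-colour oligonucleotide arrays. The labels describe the work as a yeast aging study and call the null strain by its genotype alone. No label used here states the strain background, the number of clones, or the dose and duration of MMS. In each group 1 of the arrays carries the word rep, with nothing to say that it came from a separate culture, so the p-values measure the spread between 2 arrays, which may be technical. A positive difference means that MMS moved a gene further up, or less far down, in the null strain.

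Sgs1 is the RecQ-family helicase of yeast, a relative of the human Bloom and Werner helicases. With its partners Top3 and Rmi1 it resolves recombination intermediates and helps to stabilise stalled replication forks. MMS methylates DNA bases, and the lesions block replication. The checkpoint kinases Mec1, Rad53 and Dun1 then slow the cell cycle and raise transcription of repair and nucleotide synthesis genes. MMS also reacts with glutathione and proteins, and a large part of the known transcriptional response in yeast consists of antioxidant, detoxification and proteasome genes that do not belong to DNA repair.

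The arrays bore out their strain labels. The deposited SGS1 intensity was 339.1 to 777.3 on the 4 wild type arrays and 1.7 to 17.7 on the 4 null arrays, so SGS1 itself has no measurable MMS response in the null. The untreated null pair stood apart from the others. The MMS response of the wild type first arrays correlated at r = 0.755 with that of the wild type rep arrays over 7641 features, but the first and rep responses of the null correlated at r = 0.347. The 3′ to 5′ signal ratio of control probes is a sign of RNA integrity. For ACT1 it was 1.78 to 2.28 on 6 arrays and 3.25 and 2.70 in the null with MMS. For SPT15 the null with MMS gave both the highest and the lowest ratio of the 8 arrays, 3.52 and 2.25. For SRB4 wild type gave 3.65 and 4.82 untreated and 5.46 and 5.90 with MMS. The null gave 6.00 and 5.96 untreated and 7.00 and 8.04 with MMS, so SRB4 was higher in the null in both conditions. The part of these ratios in the results was not tested.

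Feature by feature, many genes passed the test in the same direction in both strains, and none passed the test of a difference between them. A feature here is a named gene, with its probe sets averaged, or a probe set without a single gene name. Values were quantile normalized, log2 transformed and tested with limma, and p-values are two-sided, adjusted over 7641 features and called under 0.05. In wild type 261 features rose (3.42% of those tested) and 224 fell (2.93%), and in the null 109 rose (1.43%) and 83 fell (1.09%). Both strains called 157 features in the same direction (2.05%), 91 up and 66 down, and 0 in opposite directions. These made up 32.4% of the wild type calls and 81.8% of the null calls. Of the 328 features called in wild type alone, 315 had the same sign in the null, and so had all 35 of those called in the null alone the sign of wild type.

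The difference itself passed for no feature: limma called 0 of 7641 (0.0%) for the interaction, with a lowest adjusted p of 0.205. At an unadjusted p under 0.05 there were 363 features (4.75%), 186 with the positive sign (2.43%) and 177 with the negative (2.32%). Such a threshold passes 5% when nothing differs and the arrays vary independently, which the model without the rep mark assumes. With the rep mark as a block it passed 640 features (8.38%), with 0 past adjustment. On the deposited scale the count at an unadjusted p was 375, split into 130 positive and 245 negative, so the balance of signs depends on how the arrays are scaled. Over all features the difference on the first arrays correlated with that on the rep arrays at r = 0.276.

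With 2 arrays per group, the counts rest on every array. Wild type had 5 calls without its first untreated array and 0 without its second, and 5 and 6 without its first and second MMS array. Without 1 null array, wild type had 247 to 280. For the null, 13 and 8 calls were made without its first or second untreated array, 1 without either of its MMS arrays, and 4 or 5 without a wild type array. The 363 features at unadjusted p became 695 without the first untreated null array. Leaving out any other array gave 267 to 412.

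**Figure D1:**
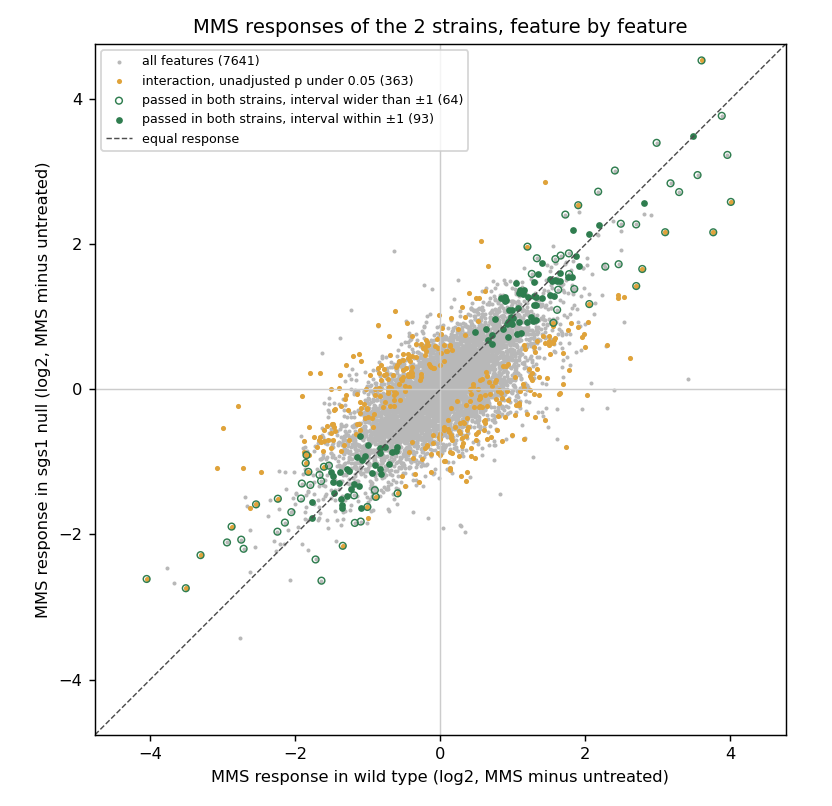
MMS response (log2, MMS minus untreated) of each of 7641 features in wild type (horizontal) against sgs1 null (vertical), with a dashed line of equal response. The 157 features called in both strains are green. For 93 of them (filled) the interval of the difference lay within 1 log2 unit on either side of 0. The 363 features with an unadjusted interaction p under 0.05 are orange where no green symbol covers them. The sets overlap: ATR1, called in both strains at 3.76 and 2.17, lies off the line.

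A like response can be stated only where the interval of the difference is narrow. The 95% interval had a median half-width of 1.02 on the log2 scale (quartiles 0.69 and 1.44), and it lay within -1 to 1 for 2111 features (27.6%). Among the 157 features called in both strains it did so for 93 (1.22% of all features), 59 up and 34 down. The remaining 64 were called in both strains with wider or shifted intervals. Among the 157, the null response over the wild type response had a median ratio of 0.967, and the response was larger in wild type for 89 and larger in the null for 68. Across all 7641 features the responses correlated at Pearson r = 0.730 and Spearman rho = 0.669. They share no array, although all 8 arrays share the normalization.

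The protein breakdown machinery rose in both strains with a median difference near 0. Of 36 measured genes of the 26S proteasome, which degrades ubiquitin-tagged proteins, 12 rose in wild type and 6 in the null, 0 fell in either, and the median response was 0.90 and 0.94 on the log2 scale. The median difference was -0.02, with -0.07 on the first arrays and 0.03 on the rep arrays, and 1 member passed an unadjusted p of 0.05 in each direction. The interval of the difference was within 1 log2 unit for 19 of the 36, so the other members are not shown to respond alike. The median of all features was 0 in both strains, and 3.42% of them rose in wild type and 1.43% in the null. Cdc48 and ubiquitin factors, which extract tagged proteins and pass them to the proteasome, gave 4 rises of 17 in wild type and the same number in the null, with medians of 0.72 and 0.88 and a median difference of 0.05, with such an interval for 7 of 17. All 4 were the same genes with an interval within 1 log2 unit: UFD1, NPL4, UBI4 and DDI1.

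NPL4, a cofactor of the Cdc48 segregase, read 1039 and 1058 in untreated wild type and 3247 and 4525 with MMS. In the null it read 972 and 1023 untreated and 3094 and 4088 with MMS. All 4 treated arrays lay above all 4 untreated ones and the strains overlapped under MMS. Its response was 1.87 ± 0.21 (standard error) in wild type (adjusted p = 0.0192) and 1.83 in the null (adjusted p = 0.0296), a difference of -0.03 ± 0.30. DDI1, a ubiquitin-binding protease long known as a DNA damage inducible gene, rose by 2.05 in wild type and 2.14 in the null, from 1303 to 1854 on the untreated arrays to 5304 to 7827 on the treated ones. UBI4, the polyubiquitin gene, rose by 0.72 and 0.63, and its difference of -0.08 ± 0.12 was among the better measured. RPT3, an ATPase of the proteasome base, rose by 1.59 and 1.80, but its interval was wider. Of the 36 members the difference was below 0 for 19 and above 0 for 17. RPT5 leaned to a larger rise in the null, with 0.34 in wild type and 1.00 in the null, neither called. Its difference was 0.65 ± 0.25 (unadjusted p = 0.0474). RPN4, counted in the 36, encodes the transcription factor of the proteasome genes and leaned to a smaller rise in the null. It rose in wild type by 1.29 (adjusted p = 0.0199), gave 0.58 in the null (adjusted p = 0.118), and differed by -0.71 ± 0.21 (unadjusted p = 0.0195, adjusted p = 0.998).

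RPN4 was already higher in the untreated null. It read 2476 and 2346 in untreated wild type against 3905 and 4467 in the untreated null, and 5318 and 6564 against 5835 and 6712 with MMS. The untreated strains did not overlap and the treated strains did.

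Oxidant defence and detoxification genes were the other group with many shared rises. Of 31 measured genes of the Yap1 regulon, thioredoxin and glutathione, 12 rose in wild type and 9 in the null, all 9 of them shared, and 0 fell. The medians were 0.58 and 0.80, the median difference was -0.04, and 1 member passed an unadjusted p of 0.05. The interval was within 1 log2 unit for 18 of 31. Over all features 3.42% rose in wild type and 1.43% in the null. OYE3, an old yellow enzyme that uses NADPH, gave the closest match among strong responders. It went from 1068 and 1047 to 11345 and 12251 in wild type and from 1121 and 847 to 10218 and 11870 in the null. The strains overlapped in both conditions, and the rises were 3.48 (adjusted p = 0.0044) and 3.50 (adjusted p = 0.00796), with a difference of 0.02 ± 0.23.

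YAP1, the oxidative stress transcription factor, rose by 1.82 and 1.55. YCF1, the vacuolar glutathione conjugate pump, rose by 1.91 and 1.71, from 691 to 834 untreated to 2355 to 2868 with MMS over both strains. SSU1, the sulfite efflux pump, rose from 1865 and 2209 to 8939 and 9490 in wild type and from 1804 and 1960 to 9520 and 8641 in the null, by 2.18 and 2.27. For SSU1 the treated arrays of both strains fell in one range, and the difference was 0.09 ± 0.17. Sulfiredoxin (SRX1) rose by 2.98 and 3.40, the thiol peroxidase GPX2 by 3.55 and 2.95, and the glutathione transferase GTT2 by 2.18 and 2.73. SRX1 and GTT2 were named after their values were seen. The 3 differed in size by 0.42, -0.59 and 0.55, none with an unadjusted p under 0.05. AAD4, of the aryl-alcohol dehydrogenase family, rose by 2.81 and 2.57. Members of that family are alike in sequence and may cross-hybridize, and of the 2 probe sets of AAD4, 1 is named by the array's maker as shared.

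Iron uptake genes gave 5 rises and 1 fall of 28 in wild type and 4 rises and 1 fall in the null, with medians of 0.73 and 0.61. Over all features 3.42% rose and 2.93% fell in wild type, and 1.43% and 1.09% in the null. FRE1, a cell surface iron reductase, rose by 2.70 and 2.27, and FTR1, the high-affinity iron permease, by 1.28 and 1.17. FET4, the low-affinity iron transporter, fell by 1.79 and 1.32. FTR1 and FET4 were named after their values were seen. ISU2, a scaffold for iron-sulfur clusters in mitochondria, rose by 1.83 and 2.19. SIT1, a transporter of iron bound to siderophores, rose in both strains, by 1.20 and 1.97. Its difference of 0.77 ± 0.26 (unadjusted p = 0.0309) did not pass adjustment.

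**Figure D2:**
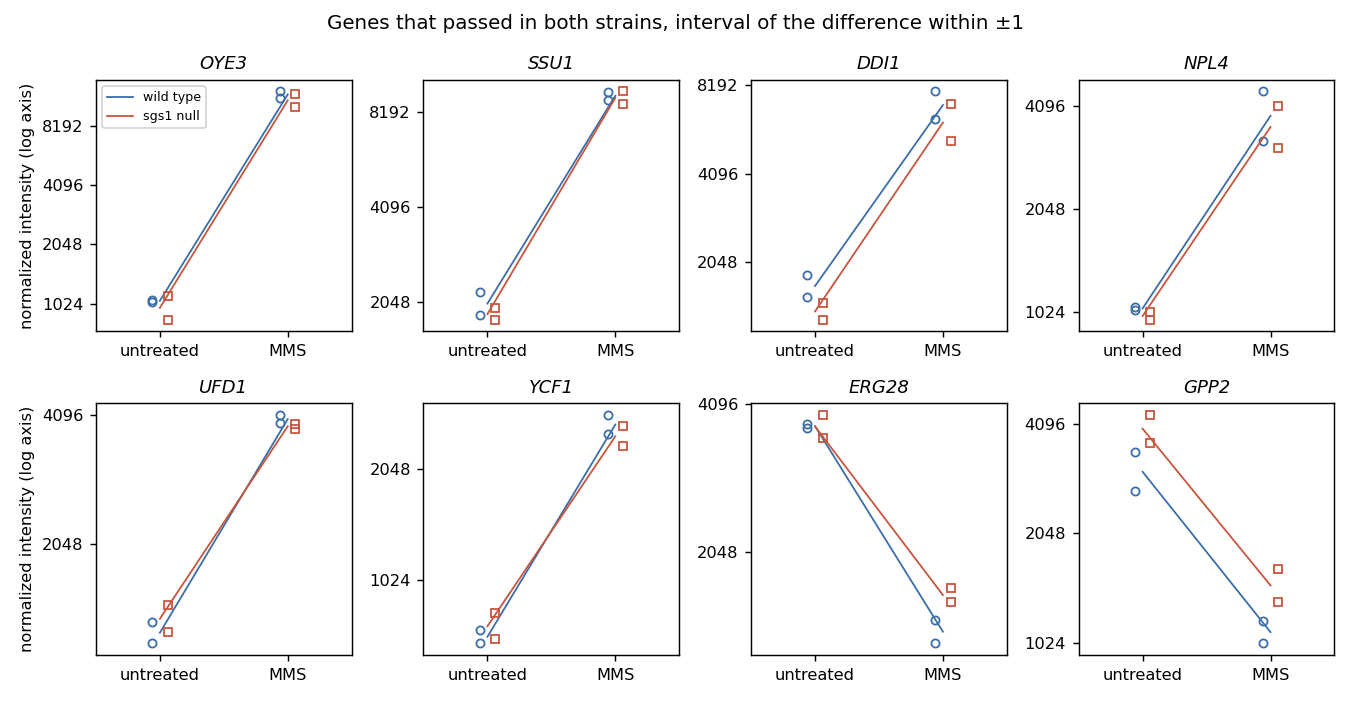
Normalized intensity (vertical, log axis) of 8 genes called in both strains whose interval of the difference lay within 1 log2 unit, untreated and with MMS. Each symbol is 1 array (blue circles wild type, red squares sgs1 null) and lines join the group means of the log2 values. In all 8 the lines run close to parallel, as for OYE3, which rose by 3.48 in wild type and 3.50 in the null.

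Shared falls were fewer, and those first described here had an interval of the difference within 1 log2 unit. ERG28, a scaffold of the sterol demethylation enzymes, read 3730 and 3663 untreated and 1492 and 1337 under MMS in wild type, and 3499 and 3897 and then 1730 and 1626 in the null. It fell by 1.39 and 1.14, a difference of 0.25 ± 0.14. ERG5, a sterol desaturase, fell by 1.77 and 1.55, and SUR2, a hydroxylase of sphingolipid synthesis, by 1.48 and 1.28. GPP2, a glycerol phosphatase induced by osmotic stress, fell by 1.46 and 1.43, and STF1, a regulator of the mitochondrial ATP synthase, by 1.29 and 1.48. GAL10, a galactose-pathway epimerase, fell by 1.40 and 1.29. Respiratory chain and ATP synthase genes gave medians of -0.61 and -0.55, with 4 falls of 36 in each strain, of which 2 were the same genes. Falls were called for 2.93% of all features in wild type and 1.09% in the null.

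Several large groups had small median responses in both strains and little median difference, taken over all arrays. The 80 cytosolic ribosomal protein genes had medians of -0.11 and -0.15 and a median difference of 0.04. For the 66 mitochondrial ribosomal protein genes these were -0.22, -0.26 and -0.01. The 25 Msn2/4 stress genes, which rise in many stresses, had a median of -0.34 in both strains. This joins unlike pairs of arrays. The median response was -0.54 in wild type and -0.76 in the null on the first arrays, and -0.03 and 0.14 on the rep arrays. The median difference of the Msn2/4 genes was -0.04, but it was -0.19 on the first arrays and 0.22 on the rep arrays. Under median centring in place of quantile normalization the median difference became 0.25 for the cytosolic ribosomal proteins, 0.17 for the Msn2/4 genes, 0.09 for the proteasome and 0.10 for the oxidant defence genes, so the size of these small values depends on the scaling, and for the last 3 groups so does the sign.

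DNA repair and replication lists had median differences near 0, but few members had an interval narrow enough to show a like response. It was within 1 log2 unit for 11 of 47 replication, 8 of 18 nucleotide excision repair, 5 of 16 recombination and 1 of 10 base excision repair genes. Of 47 DNA replication genes, 6 rose in wild type and 2 in the null, with medians of 0.43 and 0.45 and a median difference of 0.00. RFA1, which encodes the largest part of the single-strand DNA binding protein RPA, rose by 1.35 and 1.59. It read 2415 and 2826 in untreated wild type and 2413 and 2178 in the untreated null, then 6368 and 6956 against 6852 and 7000. The strains overlapped with MMS, and the difference was 0.25 ± 0.16. Nucleotide excision repair genes had medians of 0.60 and 0.49 over 18 genes and a median difference of -0.06. Of these, 4 were called as rising in wild type and 0 in the null, against 3.42% and 1.43% of all features. Homologous recombination genes had a median difference of -0.02 over 16, and base excision repair genes one of 0.01 over 10. The 16 genes of the Sgs1 complex, its partners and other helicases had median responses of -0.01 and -0.02 and a median difference of 0.02.

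RNR1, the large subunit of ribonucleotide reductase, read 875 and 1055 untreated and 2184 and 3045 under MMS in wild type, and 1053 and 892 and then 2293 and 2730 in the null. It rose by 1.42 in wild type (adjusted p = 0.0328) and gave 1.37 in the null (adjusted p = 0.0535). The strains overlapped in both conditions, and the difference was -0.06 ± 0.31. RNR2 and RNR4, of the small subunit, differed by 0.09 ± 0.26 and -0.15 ± 0.15.

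Other lists had median differences further from 0, in a description that rests on counts and medians and not on a test. The lists were read against all features, which had a median difference of 0, quartiles of -0.28 and 0.28, and 3800 of 7641 above 0. They were also read against 8 reference genes of the kind used to normalize expression, such as the tubulin gene TUB1. These had a median difference of 0.21, with a range of 0.04 to 0.31 when 1 array was left out, so a list median of that size sets nothing apart. With the features split by intensity into 4 classes of like size, the brightest class had a median difference of 0.05 (0.18 under median centring), against -0.05 (-0.11) in the class next to the dimmest. Of the reference genes, 7 of 8 were in the brightest class.

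**Figure D3:**
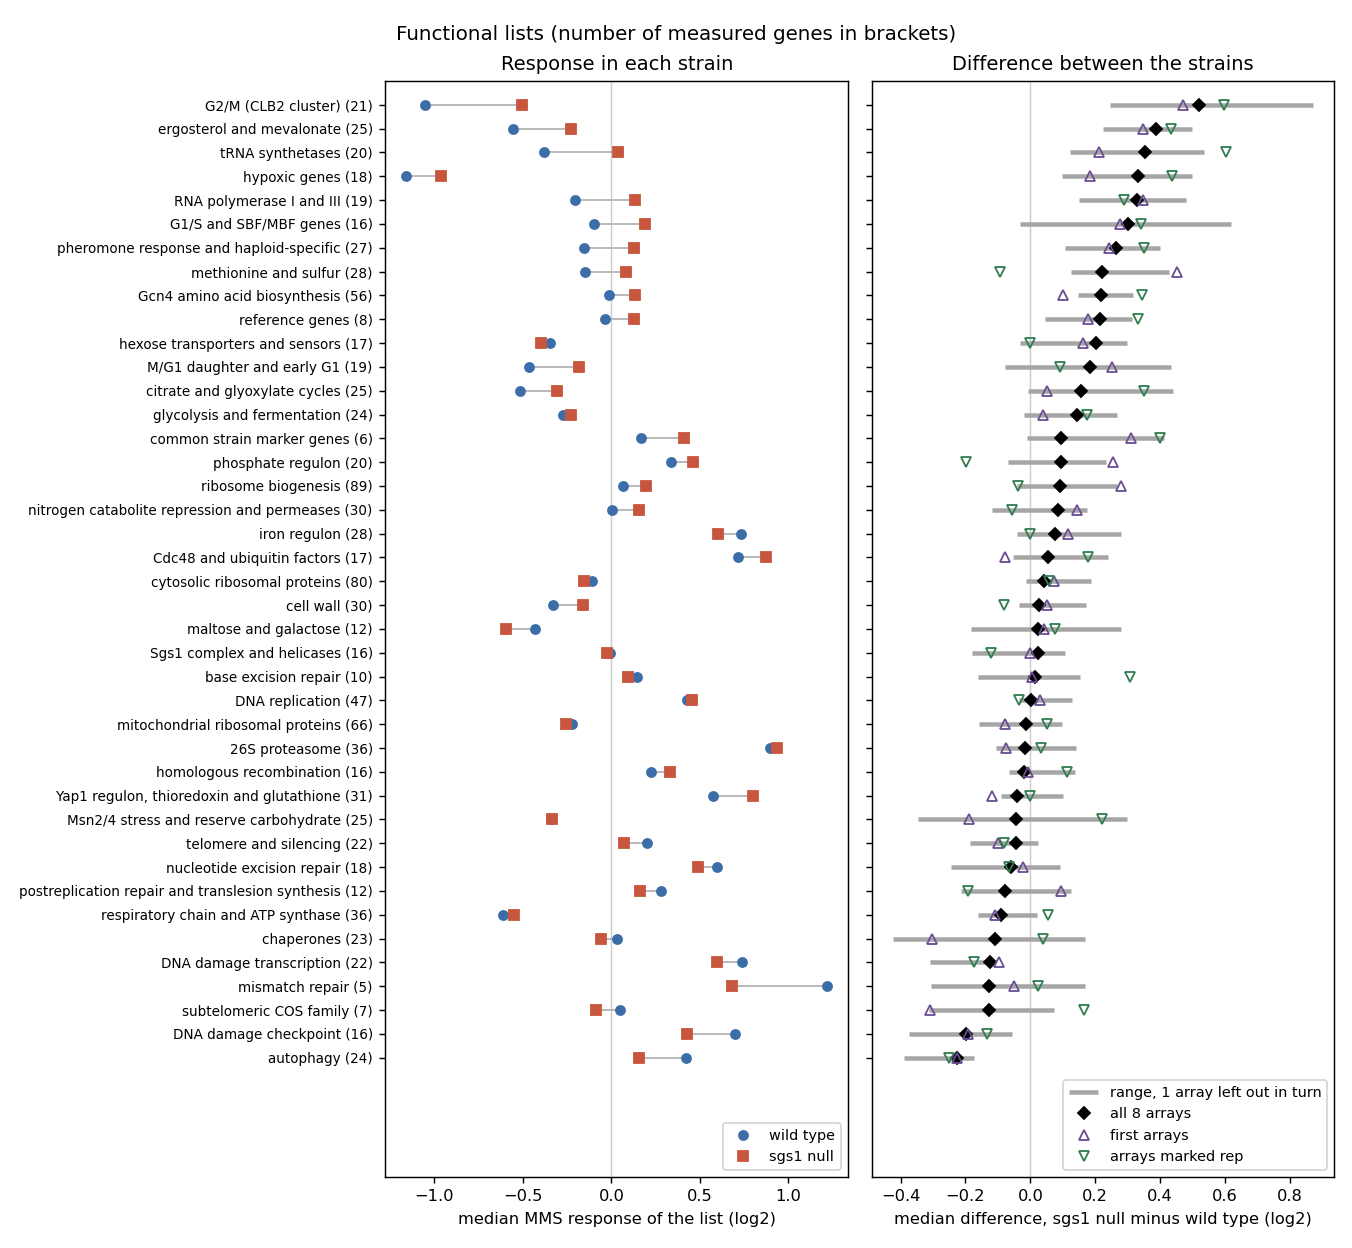
Median MMS response of each functional list in wild type and sgs1 null (left, log2) and the median difference between the strains (right, log2), with the number of measured genes in brackets and lists of under 5 left out. Grey bars give the range when each array is left out in turn, and triangles the first and the rep arrays alone. G2/M genes stand at the top with 0.52 and autophagy genes at the bottom with -0.23, while the proteasome lies at -0.02.

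The G2/M genes had the largest median difference among the lists with at least 5 measured genes under quantile normalization. Ergosterol genes exceeded them under median centring (0.50 against 0.48) and on the deposited scale (0.41 against 0.39). They form the cluster switched on by Fkh2, Ndd1 and Mcm1 as cells enter mitosis, and include B-type cyclins and the genes of cell division. Of 21 measured, 8 fell in wild type and 1 in the null, and 0 rose in either. The median response was -1.06 in wild type and -0.51 in the null. The difference was above 0 for 18 of 21, with a median of 0.52 and quartiles of 0.18 and 0.85. At an unadjusted p under 0.05, 7 of 21 had a positive and 0 a negative difference, and 0 of the 21 passed adjustment. Over all features these shares were 2.43% and 2.32%, and falls were called for 2.93% in wild type and 1.09% in the null. The median was 0.47 on the first arrays and 0.60 on the rep arrays. It fell to 0.24 without the first wild type MMS array, where the reference genes gave 0.04, and was 0.87 without the first null MMS array. Under median centring it was 0.48, against 0.38 for the reference genes, and on the deposited scale 0.39 against 0.29. The G2/M list thus stood less far from the reference genes under these scalings. In bulk RNA, fewer cells in a stage of the cycle and less RNA per cell cannot be told apart.

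CHS2, the chitin synthase that builds the primary septum at division, showed the widest gap of these genes. In wild type it read 1380 and 1705 untreated and 136 and 274 with MMS, and in the null 1344 and 955 untreated and 673 and 908 with MMS. The strains did not overlap in either condition, though untreated their nearest arrays were close, and the null was lower untreated and higher with MMS. It fell by 2.99 ± 0.40 in wild type (adjusted p = 0.0263) and gave -0.54 in the null (adjusted p = 0.546), a difference of 2.45 ± 0.57 (unadjusted p = 0.00745, adjusted p = 0.871). The difference was 1.94 to 2.93 with 1 array left out.

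WSC4, of the WSC family of membrane stress proteins, read 1419 and 1483 untreated and 218 and 224 under MMS in wild type, and 1215 and 1014 and then 416 and 656 in the null. The null was lower untreated and higher with MMS, with no overlap. It fell by 2.72 in wild type and gave -1.09 in the null (adjusted p = 0.0874), and the difference was 1.63 ± 0.33 (unadjusted p = 0.00445). ALK1, a haspin-related mitotic kinase, fell by 1.56 in wild type and gave -0.51 in the null. Its difference was 1.48 on the first arrays and 0.63 on the rep arrays. The other 4 at that level were the cyclin CLB1, the bud site protein BUD4, the myosin of the division ring MYO1 and the kinase KIN3, named after their values were seen, with differences of 0.52 to 0.85. Not every member leaned this way. SPO12, a mitotic exit regulator, fell in both strains, with responses of -1.28 and -1.10, and CLB2, the main mitotic cyclin, gave -1.23 and -1.08, neither of them called. These 2 were also named after their values were seen.

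**Figure D4:**
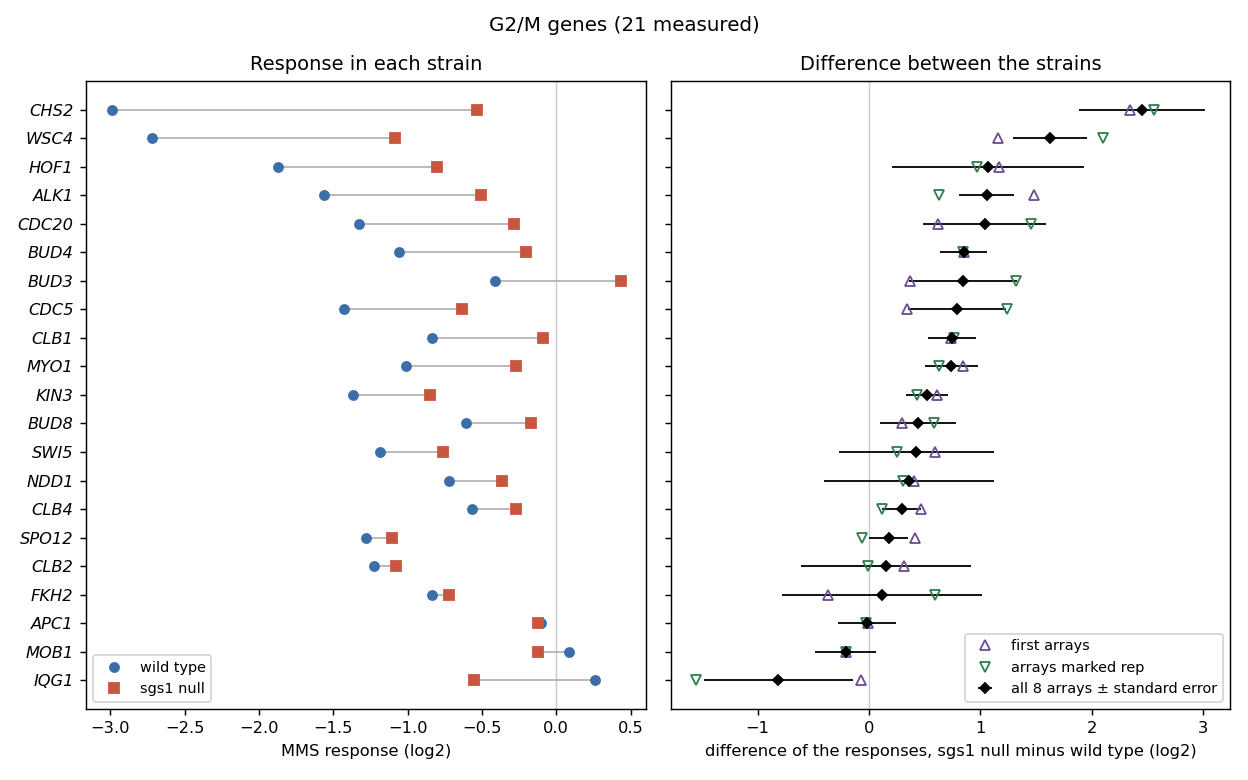
MMS response (left, log2) and its difference between the strains (right, log2, ± standard error) for the 21 measured G2/M genes. Wild type (blue) lies left of sgs1 null (red) for 18 of 21, most widely for CHS2 at -2.99 and -0.54.

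The M/G1 and G1/S lists were not set apart from the reference genes, whose median difference ran up to 0.31 with 1 array left out. Of 10 listed histone genes only 4 were measured, too few to describe as a list. Their median difference was 0.50, above 0 for 3 of 4, and 0.15 to 0.87 with 1 array left out. None of them passed an unadjusted p of 0.05. The 19 M/G1 genes had a median difference of 0.18, with 1 positive and 1 negative at an unadjusted p under 0.05. The 16 G1/S genes, driven by the SBF and MBF factors, had medians of -0.10 and 0.19 and a median difference of 0.30, above 0 for 13 of 16. That median was 0.28 on the first arrays and 0.34 on the rep arrays, but -0.03 without the first wild type MMS array and 0.62 without the second. NRM1, a repressor of MBF targets, read 1117 and 1342 untreated and 559 and 543 under MMS in wild type, and 737 and 1009 and then 868 and 789 in the null. The wild type arrays separated by treatment and the null arrays overlapped. It fell by 1.15 in wild type (adjusted p = 0.0357) and gave -0.06 in the null, a difference of 1.09 ± 0.26 (unadjusted p = 0.00853). The G1 cyclin genes CLN1 and PCL1 gave differences of 0.87 ± 0.24 and 0.84 ± 0.29. SWI4, the DNA-binding subunit of SBF, gave -0.66 ± 0.68.

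Pheromone response and haploid-specific genes had medians of -0.16 in wild type and 0.13 in the null over 27 genes, with 1 rise and 1 fall called in wild type. Their median difference was 0.26 (0.24 on the first arrays and 0.35 on the rep arrays), above 0 for 20 of 27. At an unadjusted p of 0.05, 5 of 27 passed, all positive, against 2.43% positive over all features. The median lay inside the range of the reference genes, so the list is not set apart from them. FAR1, an inhibitor of G1 cyclin kinase, read 949 and 982 untreated and 343 and 515 under MMS in wild type. In the null it read 502 and 323 untreated and 462 and 660 with MMS. Its difference was 1.65 ± 0.46 (unadjusted p = 0.0157), and the untreated strains did not overlap. FIG1, a membrane protein of mating cells, differed by 1.64 ± 0.63, and PRM1, a fusion protein, by 0.90 ± 0.29. The kinase FUS3 and the protease BAR1, named after their values were seen, differed by 0.61 and 0.47. HO, the endonuclease of mating type switching, gave 271, 342, 254 and 153 in wild type and 233, 204, 379 and 563 in the null, untreated arrays first. Its difference of 1.71 was 0.80 on the first arrays and 2.62 on the rep arrays.

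Among growth and membrane synthesis genes the lists were mixed. The 89 ribosome biogenesis genes had a median difference of 0.09, with 0.28 on the first arrays and -0.04 on the rep arrays, and 1 member in each direction at an unadjusted p under 0.05. The 25 ergosterol and mevalonate genes, which make the sterol of yeast membranes, had medians of -0.56 and -0.23, with 4 falls in wild type and 2 in the null. Their difference was above 0 for 23 of 25, with a median of 0.39, 0.35 on the first arrays and 0.43 on the rep arrays, and 0.22 to 0.50 with 1 array left out. Only 2 of 25 passed an unadjusted p of 0.05, and 18 of 25 were in the brightest class of intensity, with the reference genes. Over all features falls were called for 2.93% in wild type and 1.09% in the null. MVD1, the mevalonate pyrophosphate decarboxylase, read 4958 and 4099 untreated and 1466 and 1777 under MMS in wild type, and 3130 and 3279 and then 1888 and 2071 in the null. It fell by 1.48 in wild type (adjusted p = 0.0154) and gave -0.70 in the null (adjusted p = 0.0849), a difference of 0.79 ± 0.21. The null lay below wild type untreated and above it with MMS, with no overlap in either condition. IDI1, the isomerase of the same pathway, differed by 0.64 ± 0.18.

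Of 18 hypoxic genes, which need low oxygen or low haem for expression, 6 fell in wild type and 3 in the null, with medians of -1.16 and -0.96. Falls were called for 2.93% and 1.09% of all features. The median difference of the hypoxic genes was 0.33, above 0 for 12 of 18. ANB1, a translation factor of this set, read 4616 and 5518 untreated and 228 and 408 under MMS in wild type, and 6335 and 4298 and then 705 and 1031 in the null. It fell in both, with responses of -4.05 and -2.61. The difference was 1.44 ± 0.54 (unadjusted p = 0.0438), and the treated strains did not overlap. OLE1, the fatty acid desaturase, gave -0.86 in wild type and 0.30 in the null, neither called, and a difference of 1.17 ± 0.35.

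For the 20 tRNA synthetase genes, which charge tRNAs with amino acids, the medians were -0.38 and 0.04 and the median difference 0.35, above 0 for 17 of 20. It was 0.21 on the first arrays and 0.60 on the rep arrays, and no member passed an unadjusted p of 0.05. Of these genes 14 were in the brightest class of intensity, where the reference genes also lay. The 19 genes of RNA polymerases I and III, which make ribosomal and transfer RNA, had medians of -0.20 and 0.13. Their median difference was 0.33, and 3 of 19 were positive at an unadjusted p under 0.05, against 2.43% of all features. RPA43, a subunit of polymerase I, read 1154 and 1114 untreated and 708 and 792 under MMS in wild type, and 864 and 775 and then 959 and 1116 in the null. Treated arrays lay below untreated ones in wild type and above them in the null, although neither response was called, and the difference was 0.94 ± 0.17 (unadjusted p = 0.0027, adjusted p = 0.871). RPC19, a subunit of both polymerases, differed by 0.56 ± 0.13.

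URA6, the uridylate kinase of nucleotide synthesis, belonged to no list. It read 6982 and 7143 untreated and 2467 and 3289 under MMS in wild type, against 3691 and 3422 and then 3054 and 3417 in the null. It fell by 1.31 in wild type (adjusted p = 0.022) and gave -0.14 in the null, a difference of 1.17 ± 0.23. The untreated null lay nearer to treated than to untreated wild type, with no overlap between the untreated strains. YPT31, a Rab GTPase of the secretory pathway, had the same layout, with 4743 and 5449 falling to 2641 and 2787 in wild type and 2809 and 3175 followed by 2868 and 2772 in the null.

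Among features with no group at the intensity floor, GAP1, the general amino acid permease, had the lowest interaction p. It read 4246 and 3920 in untreated wild type and 983 and 1210 with MMS, but 4251 and 4405 and then 4398 and 3733 in the null. Only the treated wild type arrays were low, and the other 6 lay in one range. It fell by 1.90 ± 0.14 in wild type (adjusted p = 0.00981) and gave -0.09 in the null (adjusted p = 0.808). The difference was 1.81 ± 0.20 (unadjusted p = 0.000294, adjusted p = 0.749) and stayed at 1.65 to 1.97 with 1 array left out. MEP2, the ammonium permease and sensor, fell by 1.66 in wild type and gave -0.66 in the null. It read 871 and 790 in untreated wild type and 2019 and 2499 in the untreated null, with 258 and 267 against 1608 and 1264 under MMS, and so was higher in the null in both conditions. DAL80, a repressor of nitrogen catabolic genes, and AGP1, another amino acid permease, gave differences of 1.36 ± 0.33 and 0.84 ± 0.25.

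The nitrogen list did not lean one way as a whole. Its 30 genes had a median difference of 0.09, with 4 positive and 2 negative at an unadjusted p under 0.05. BAP2, a branched-chain amino acid permease, rose by 1.41 in wild type, gave 0.73 in the null and differed by -0.68 ± 0.22.

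Sugar transport was mixed too. Of 17 hexose transporters and sensors, 3 were positive and 2 negative at an unadjusted p under 0.05 (29.4%, against 4.75% of all features). Their median difference was 0.20, and 3 of the 17 had a group at the intensity floor. HXT1, the low-affinity hexose transporter induced by high glucose, read 888 and 959 untreated and 1284 and 1613 under MMS in wild type, and 1142 and 1286 and then 744 and 759 in the null. Treated arrays lay above untreated ones in wild type and below them in the null. The responses of 0.64 and -0.69 were not called, and the difference was -1.33 ± 0.20 (unadjusted p = 0.00109, adjusted p = 0.812). HXT5, induced by slow growth, read 454 to 553 on all wild type arrays, 2470 and 2273 in the untreated null and 897 and 1406 in the treated null. HXT4, a high-affinity transporter, fell in both strains, with responses of -2.54 and -1.59. Its difference was 0.96 ± 0.27. Hexose transporters resemble each other in sequence, and cross-hybridization was not tested. ADH2, the glucose-repressed alcohol dehydrogenase, fell by 2.88 and 1.89, and its untreated level was 2735 and 2652 in wild type and 938 and 1271 in the null. CYC1, cytochrome c, gave -1.40 in wild type and 0.02 in the null, neither called.

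**Figure D5:**
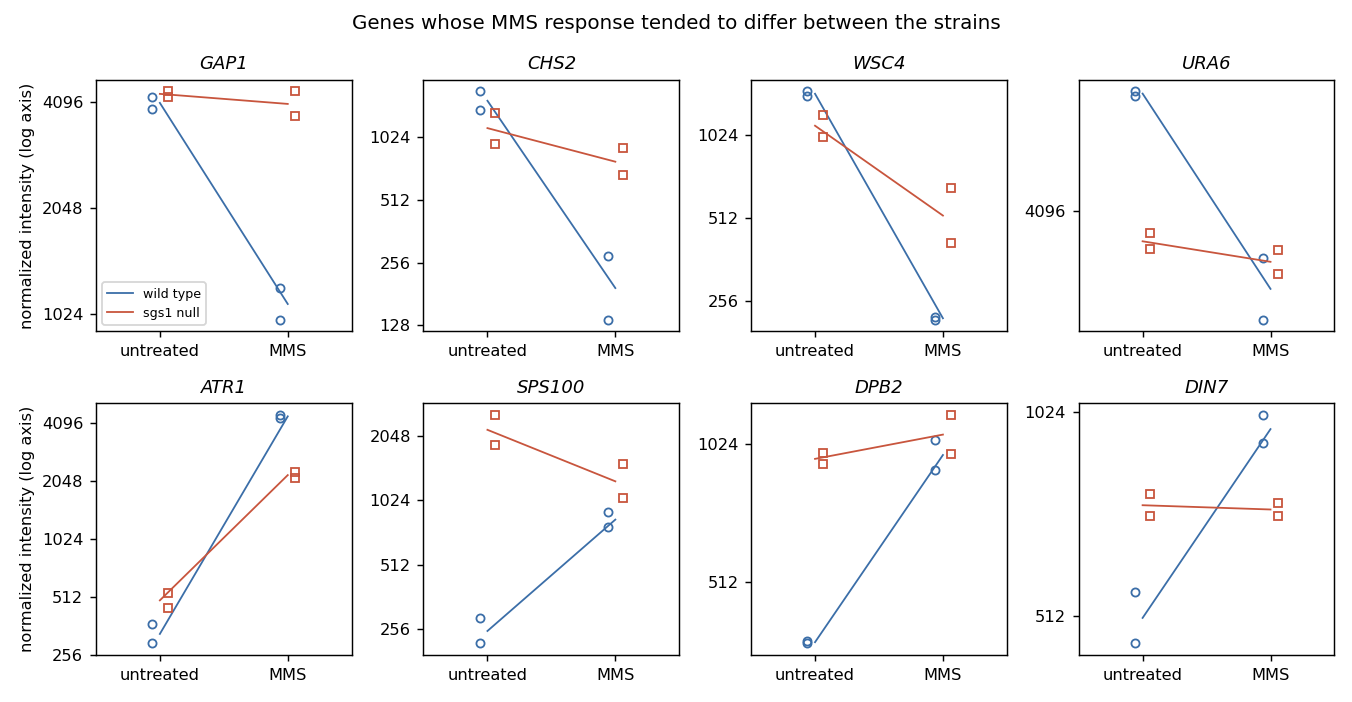
Normalized intensity (vertical, log axis) of 8 genes with an unadjusted interaction p under 0.05, untreated and with MMS; none passed adjustment. Each symbol is 1 array (blue circles wild type, red squares sgs1 null) and lines join the group means of the log2 values. GAP1, CHS2 and WSC4 separate the strains mainly with MMS, and URA6, SPS100 and DPB2 mainly untreated.

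Damage-induced genes leaned slightly to the negative side. Over 22 genes known to be induced by DNA damage, 8 rose in wild type and 4 in the null, with 0 falls and medians of 0.74 and 0.60. Over all features 3.42% and 1.43% rose. The median difference was -0.13 (-0.10 on the first arrays, -0.17 on the rep arrays), below 0 for 16 of 22. It lay within the quartiles of all features, -0.28 and 0.28, but these are a spread of single features and do not gauge a list median. With 1 array left out the median of the damage genes ran from -0.31 to -0.13, and that of the reference genes from 0.04 to 0.31. Of the damage genes 7 of 22 were in the brightest class of intensity, against 7 of 8 reference genes. Whether the list is set apart was not tested. At an unadjusted p under 0.05 there were 3 of 22, all negative, against 2.32% negative over all features. Under median centring the median difference was -0.16 and on the deposited scale -0.25. The untreated null stood 0.25 above wild type in median over these genes, and the treated null -0.02. The 16 checkpoint genes had medians of 0.70 and 0.43 and a median difference of -0.20, which ran from -0.37 without the first untreated wild type array to -0.06 without the second.

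DIN7, a mitochondrial nuclease named for its induction by DNA damage, read 466 and 555 untreated and 920 and 1013 under MMS in wild type, and 775 and 718 and then 718 and 752 in the null. All 4 null arrays lay between the untreated and the treated wild type arrays. It rose by 0.92 in wild type (adjusted p = 0.0247) and gave -0.02 in the null (adjusted p = 0.991), a difference of -0.94 ± 0.17 (unadjusted p = 0.00249, adjusted p = 0.871). HUG1, an inhibitor of ribonucleotide reductase, read 1293 and 1716 untreated and 1777 and 2576 under MMS in wild type. In the null it read 2505 and 2857 untreated and 1784 and 1773 with MMS, so the untreated null was the highest group, with 1 treated wild type array inside its range. Neither response was called, and the difference was -1.11 ± 0.33 (unadjusted p = 0.0193).

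DUN1, the checkpoint kinase that raises nucleotide synthesis, rose by 1.17 in wild type (adjusted p = 0.0236) and gave 0.56 in the null (adjusted p = 0.123). CHK1, another checkpoint kinase, gave 0.81 and -0.01. Their differences were -0.61 ± 0.21 and -0.82 ± 0.27, in both cases smaller on the first arrays (-0.25 and -0.44) than on the rep arrays (-0.97 and -1.19). The checkpoint kinase RAD53, named after its values were seen, differed by only -0.15 ± 0.41. RAD54, a motor protein of recombination, rose by 1.85 and 1.38, and its difference was 0.02 on the first arrays and -0.94 on the rep arrays. RNR3, the damage-inducible subunit of ribonucleotide reductase, gave -1.08 ± 0.62, with -1.90 and -0.27 on the first and rep arrays. MAG1, the glycosylase that removes methylated bases, gave -0.44 ± 0.47. PLM2, a damage-induced transcription factor, was called in both strains, but its untreated wild type arrays were at the floor.

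DPB2, a subunit of DNA polymerase epsilon, read 379 and 374 untreated and 1044 and 901 under MMS in wild type, and 926 and 977 and then 1188 and 973 in the null. Only the untreated wild type arrays were low. It rose by 1.36 in wild type (adjusted p = 0.0147) and gave 0.18 in the null (adjusted p = 0.548), and the difference was -1.19 ± 0.19 (unadjusted p = 0.00149). SSL2, a helicase of the repair and transcription factor TFIIH, rose by 1.80 in wild type, gave 0.92 in the null and differed by -0.88 ± 0.33.

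ATR1, a multidrug efflux pump, was the detoxification gene of the list that passed an unadjusted interaction p of 0.05. It read 368 and 293 untreated and 4380 and 4539 under MMS in wild type, and 540 and 447 and then 2129 and 2283 in the null. The null was higher untreated and lower with MMS, with no overlap in either condition. It rose in both strains, by 3.76 ± 0.15 (adjusted p = 0.00422) and 2.17 (adjusted p = 0.0164), and the difference was -1.60 ± 0.22 (unadjusted p = 0.000752, adjusted p = 0.812), with -1.59 on the first arrays and -1.60 on the rep arrays. PUG1, a transporter of the plasma membrane, likewise rose in both, by 2.05 and 1.18. Its treated arrays lay at 927 to 1055 in both strains, while untreated it read 229 and 247 in wild type and 474 and 450 in the null.

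SPS100, a gene of spore wall formation, had the largest negative difference among the named genes chosen by interaction p. It read 219 and 287 untreated and 770 and 899 under MMS in wild type, and 1863 and 2570 and then 1046 and 1509 in the null. It rose by 1.73 in wild type (adjusted p = 0.0349) and gave -0.80 in the null (adjusted p = 0.198), and the difference was -2.53 ± 0.38 (unadjusted p = 0.00123). All null arrays lay above all wild type arrays. MGM1, a GTPase of mitochondrial fusion, and JJJ1, a cochaperone of ribosome assembly, rose in wild type by 1.24 and 1.26 and gave 0.18 and 0.15 in the null. In both the untreated null lay above untreated wild type, at 517 and 586 against 376 and 373 for MGM1 and at 249 and 277 against 116 and 106 for JJJ1. BAG7, a GTPase-activating protein of Rho1, rose by 1.63 in wild type and gave -0.06 in the null.

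The 24 autophagy genes, which build the vesicles that carry cytoplasm to the vacuole, had medians of 0.42 and 0.15, with 2 rises in wild type and 1 in the null. Their median difference was -0.23 (-0.23 on the first arrays and -0.25 on the rep arrays), below 0 for 17 of 24, and ran from -0.39 to -0.17 with 1 array left out. ATG11, an adaptor of selective autophagy named after its values were seen, rose in both strains, by 0.94 and 0.93. ATG1, the kinase that starts the process, gave 1.90 and 0.93, neither called, and ATG22, a vacuolar amino acid exporter, 0.27 and -0.60. Among 23 chaperone genes the median difference was -0.30 on the first arrays and 0.04 on the rep arrays. MDJ1 and HSP10, chaperones of the mitochondrial matrix, differed by -0.77 ± 0.19 and -0.84 ± 0.23.

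A smaller set was called in the null and not in wild type. SVS1, a cell wall protein, read 3439 and 3335 untreated and 4347 and 5200 under MMS in wild type, and 2742 and 2477 and then 6018 and 6506 in the null. The null was lower untreated and higher with MMS, with no overlap. It rose by 1.26 in the null (adjusted p = 0.0231) and gave 0.49 in wild type (adjusted p = 0.0836), a difference of 0.77 ± 0.17. SGV1, a cyclin-dependent kinase of transcription, and TRM10, a tRNA methyltransferase, rose in the null by 1.26 and 0.62 and gave 0.53 and 0.06 in wild type. For both, the untreated null lay below untreated wild type without overlap. SEC11, the catalytic subunit of the signal peptidase, and MCH5, a riboflavin transporter, fell in the null by 0.63 and 1.20 and gave -0.11 and -0.53 in wild type. MCH5 read 3655 and 3727 in the untreated null against 1921 and 1596 in untreated wild type, and 1684 and 1531 against 1280 and 1149 with MMS.

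The interaction shares its arrays with the strain difference in each condition, and the place of the gap can be counted only as a description. Of the 363 features at an unadjusted p under 0.05, 319 had no group at the floor. For 195 of these (61.1%) the strains lay further apart untreated than with MMS, against 4171 of 6843 (61.0%) over all features without such a group. The response was smaller in the null for 243 of the 363 and larger for 120, against 4224 of 7641 features (55.3%) smaller in the null. The standard deviation of the response over features was 0.70 in wild type and 0.59 in the null.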

How the data were processed

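The authors deposited 1 intensity per probe set and array in the series' value table, on a linear scale, with array medians of 775.0 to 971.6. How these intensities were background-corrected or scaled is not given in the sources used here. Of 8363 probe sets, 32 controls and 1 with a missing value were left out. Gene names came from the platform annotation: 6269 probe sets had 1 symbol, 309 several and 1752 none. Probe sets of 1 gene were averaged on the log2 scale (291 genes), which gave 7641 features, 5580 of them named genes. Deposited intensities were quantile normalized, and values below the 10th percentile (97.1), 4 deposited zeros included, were raised to it as a floor. The 4 group means came from 1 linear model of all 8 arrays (R 4.3.3, limma 3.58.1, eBayes without trend), which left 4 residual degrees of freedom and estimated 0.986 prior ones. P-values are two-sided and adjusted by Benjamini-Hochberg over all features, with a threshold of 0.05. Only the model fit was tried on simulated log2 values, with noise drawn independently for each array. Normalization, the floor and the averaging of probe sets were not part of that trial, nor was an effect shared by the rep arrays.

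The comparison, the 43 gene lists and the naming rules were chosen with earlier results of these data known, so lists are given by counts and medians with no test. Genes were named by rule: up to 10 per direction by the interaction (filled by unadjusted p), up to 12 per direction among those called in both strains with an interval within 1, up to 4 members per list by interaction and 2 by response, the damage genes, and up to 6 per strain called in 1 strain alone. Genes with a group at the floor on both arrays got no fold. The marks first and rep were checked as pairs by the correlation of the rep minus first deviations between groups. Among untreated wild type, wild type with MMS and null with MMS it was 0.359 to 0.667, so these groups shared a rep effect. With the untreated null it was -0.075 to 0.203. The main model left the mark out, so the shared part stays in its spread, and an alternative used the mark as a block. Alternatives were median centring, the deposited scale, no floor, a floor at the 20th percentile, leaving out the dimmest 25% of features, an intensity trend in eBayes, the rep mark as a block, each array left out, and the first or rep arrays alone.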

Additional observations from a re-analysis of the deposited data

Results flagged for a closer look

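In 6 of the genes named for their interaction p, both arrays of 1 strain moved one way with MMS and both arrays of the other strain moved the opposite way, with no overlap. Of the 363 features at an unadjusted p under 0.05, 79 had this pattern, and its share over all features was not counted. A small interaction p favours the pattern, so it adds no support for these genes. The log2 difference of the responses, null minus wild type, was 0.81 for MYG1, 0.94 for RPA43 and 1.60 for AZR1, whose untreated null arrays lay at or near the intensity floor. It was -1.33 for HXT1, -2.53 for SPS100 and -0.575 for MCR1, a mitochondrial cytochrome b5 reductase. The limma interaction gave each an adjusted p of 0.812 or 0.871, so the difference did not pass for any of them.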

How the results depend on the processing

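The interaction count of 0 stayed at 0 under median centring, the deposited scale, no floor, without the dimmest features, with the rep mark as a block and without any 1 array. It was 1 (DAN1, adjusted p = 0.0431) with the floor at the 20th percentile and 3, all probe sets without a gene name, with the intensity trend. At an unadjusted p it was 150 of 5730 without the dimmest 25%. With no floor the null count was 56 and the shared count 46. Without 1 array the counts were 0 to 280 in wild type, 1 to 13 in the null and 0 to 13 shared, fits in which a lone array is taken to vary like the other groups. The replicate block by the rep mark gave 935, 496 and 389, with 0 interaction calls, 640 features (8.38%) at an unadjusted p and 2 features called in opposite directions. The difference of RIF2, at or near the floor on all arrays, became 0.0 with the higher floor. For the 20 genes named by the interaction, 286 of 295 alternative values moved by less than the spread and 9 by more, with 0 changes of sign. Signal near the floor limits dim genes: 798 features had a group at it.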

Other observations

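The feature with the lowest adjusted interaction p, 0.205, belonged to a probe set that has no gene name in the annotation used here and had 1 group at the floor, so its size is not measured. Of the 363 features at an unadjusted p under 0.05, 253 were named genes and 44 had a group at the floor. DAN1, named after its values were seen, a cell wall mannoprotein of anaerobic cells, was one of these 44 and was called as lower with MMS in both strains.

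Mismatch repair genes, of which 5 were measured, had median responses of 1.22 in wild type and 0.68 in the null, but a median difference gene by gene of -0.13 (-0.05 on the first arrays and 0.02 on the rep arrays), above 0 for 2 of 5. PMS1, a MutL homolog of this pathway, rose by 1.94 in wild type (adjusted p = 0.0247) and gave 1.29 in the null (adjusted p = 0.0717). It read 171 and 115 untreated and 531 and 549 under MMS in wild type, and 249 and 220 and then 669 and 488 in the null. The strains overlapped with MMS and the null was higher untreated. PHO3, a secreted acid phosphatase, fell in both strains, with responses of -3.51 and -2.74, and its difference was 0.77 ± 0.16 (unadjusted p = 0.00506). It read 6876 and 6772 untreated and 563 and 637 under MMS in wild type, and 5118 and 5963 and then 803 and 850 in the null, with no overlap between the strains in either condition.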
